A study of Mus musculus with 9 samples.

Results

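Neutrophils and T cells reach allergen-painted skin through the wall of its small vessels, and 10 genes that mark that wall were followed here: the adhesion molecules Sele, Selp, Icam1 and Vcam1, the venular chemokine receptor Ackr1, the blood vessel identity genes Pecam1, Cdh5 and Vwf, and the lymphatic vessel genes Lyve1 and Pdpn. They were taken by name from the 30142 genes measured, each as the transcript cluster with 1 gene symbol and the highest mean over all 9 arrays, and each of the 10 had exactly 1 such cluster. Total RNA of whole neck skin from male C57BL/6 mice of 6 to 8 weeks, an inbred strain, was hybridised to Affymetrix mouse arrays, 3 per group. Urushiol skin and oxazolone skin came from mice sensitised on the shaved abdomen with the allergen at 2.0% and, after 5 days, challenged on the shaved nape with 40 µl of it at 0.5% in acetone. The 5 challenges ended on day 8, and RNA was taken from skin 4 hours later. Urushiol is the allergenic oil of poison ivy and oxazolone a synthetic hapten, and both raise allergic contact dermatitis. Control skin is described as healthy. The sources used here do not state whether the control mice were shaved or received acetone, so shaving, acetone and allergen cannot be told apart against control. The labels call the replicates biological, and do not say whether an array holds 1 mouse or a pool.

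As background, endothelium is activated by tumour necrosis factor, interleukin 1 and interferon gamma, and NF-kB and AP-1 are among the factors that carry such signals to the nucleus. Selectins (Sele and Selp) on the vessel wall catch passing leukocytes and let them roll. Icam1 and Vcam1, members of the immunoglobulin family, then bind leukocyte integrins and hold the cell in place. Ackr1, a decoy receptor of venular endothelium, carries chemokines across the wall and does not signal as other chemokine receptors do. Pecam1 and the cadherin Cdh5 join endothelial cells at their borders, and Vwf is the clotting factor stored with P-selectin in the granules of endothelial cells. Lyve1, a hyaluronan receptor, and Pdpn, a mucin-like glycoprotein, are standard markers of lymphatic vessels. Several are not restricted to vessels: Icam1 and Pdpn are also made by keratinocytes and fibroblasts, Vcam1 and Lyve1 by some macrophages, Pecam1 by leukocytes and platelets, and Ackr1 by red cell precursors. Whole skin does not separate these sources, and in it fewer cells of a type and less RNA per cell cannot be told apart.

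The bases before the start site are shown for Sele and Icam1, inducible adhesion genes that rose, and for Ackr1, which fell, with matches to 2 motifs in capitals. The windows hold the 250 bases before each RefSeq start on build GRCm38.p6, written 5′ to 3′ on the strand of the gene. Sele lies at chr1:164047984-164048233 on the plus strand, Icam1 at chr9:21015690-21015939 on the plus strand and Ackr1 at chr1:173333504-173333753 on the minus strand.
Sele: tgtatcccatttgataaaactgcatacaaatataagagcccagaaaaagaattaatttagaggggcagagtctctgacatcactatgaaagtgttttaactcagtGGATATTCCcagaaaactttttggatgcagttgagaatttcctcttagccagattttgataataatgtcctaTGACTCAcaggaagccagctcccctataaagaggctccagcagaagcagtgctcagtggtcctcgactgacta
Icam1: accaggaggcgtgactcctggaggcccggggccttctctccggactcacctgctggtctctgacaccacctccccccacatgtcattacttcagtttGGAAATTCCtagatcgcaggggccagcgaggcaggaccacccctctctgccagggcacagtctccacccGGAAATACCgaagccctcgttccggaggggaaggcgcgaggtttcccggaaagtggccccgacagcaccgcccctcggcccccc
Ackr1: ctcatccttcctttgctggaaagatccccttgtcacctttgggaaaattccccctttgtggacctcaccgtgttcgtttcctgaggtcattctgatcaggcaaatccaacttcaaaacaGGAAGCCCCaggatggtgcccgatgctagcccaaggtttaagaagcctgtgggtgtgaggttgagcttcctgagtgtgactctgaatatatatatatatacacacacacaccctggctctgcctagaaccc
The motifs, searched on both strands, were GGNNNTTCC (an NF-kB core) and TGANTCA (AP-1), and they were chosen after the values of these genes were known. In the Sele window, GGATATTCC lies 145 to 137 bases before the start and TGACTCA lies at 73 to 67, and the matches do not overlap. In the Icam1 window, GGAAATTCC at 153 to 145 matches on both strands, and GGAAATACC at 84 to 76 matches on the minus strand. The Ackr1 window holds GGAAGCCCC at 131 to 123, a match to the NF-kB core on the opposite strand of the gene. Of 32851 mouse promoter windows of this length, 15.7% hold the NF-kB core and 6.75% the AP-1 motif. Among the other members, Selp had 1 NF-kB core and 1 AP-1 match and Pdpn had 0 matches in its window. A match describes letters and is not a measured binding site.

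The values are log2 expression values on the scale of the deposited table. They run up to 19.93 there, above the log2 limit of 16 of a 16-bit scanner, by a step that the sources used here do not give, so a log2 difference may not equal a log2 ratio of RNA. The 10 genes lie between 5.71 and 11.59. The median of all clusters is 5.53 to 5.64 by array, so Selp at its lowest (5.71) and Vwf (6.21 to 6.73) are dim. Control array 3 stood apart: across genes it correlated at 0.979 and 0.978 with the other controls, and these correlated at 0.995 with each other, against 0.990 to 0.996 within the challenged groups. With 3 arrays a group, the smallest p of an exact permutation test is 0.1, so the adjusted p-values are limma's, which shares the spread across genes. The urushiol and oxazolone comparisons use the same 3 control arrays.

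Urushiol-challenged skin had higher Sele and Pdpn and lower Ackr1 than control skin, and oxazolone-challenged skin had higher Sele, Icam1, Vcam1 and Pdpn and lower Ackr1. With urushiol, 2 of the 10 genes rose, 1 fell and 7 did not pass the test (limma with Benjamini-Hochberg adjustment over all genes, threshold 0.05). Over all 30142 genes, 16.4% passed it with urushiol, 9.96% higher and 6.43% lower. With oxazolone, 4 rose, 1 fell and 5 did not pass, where 16.6% of all genes passed, 9.63% higher and 6.92% lower. The median log2 difference of the 10 genes was 0.30 with urushiol and 0.39 with oxazolone, beside 0.04 and 0.06 over all genes. For 4 of the 10 genes with urushiol, and 6 of the 10 with oxazolone, the 3 challenged arrays did not overlap with the 3 control arrays, as for 32.9% and 32.8% of all genes. The split over all genes depends on scaling: 3003 were higher and 1939 lower with urushiol, and after quantile normalization 2297 and 2341. With oxazolone 2904 were higher and 2085 lower, and after it 2127 and 2937. The genes that passed among the 10 kept their direction under that scaling and under median centring.

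**Figure D1:**
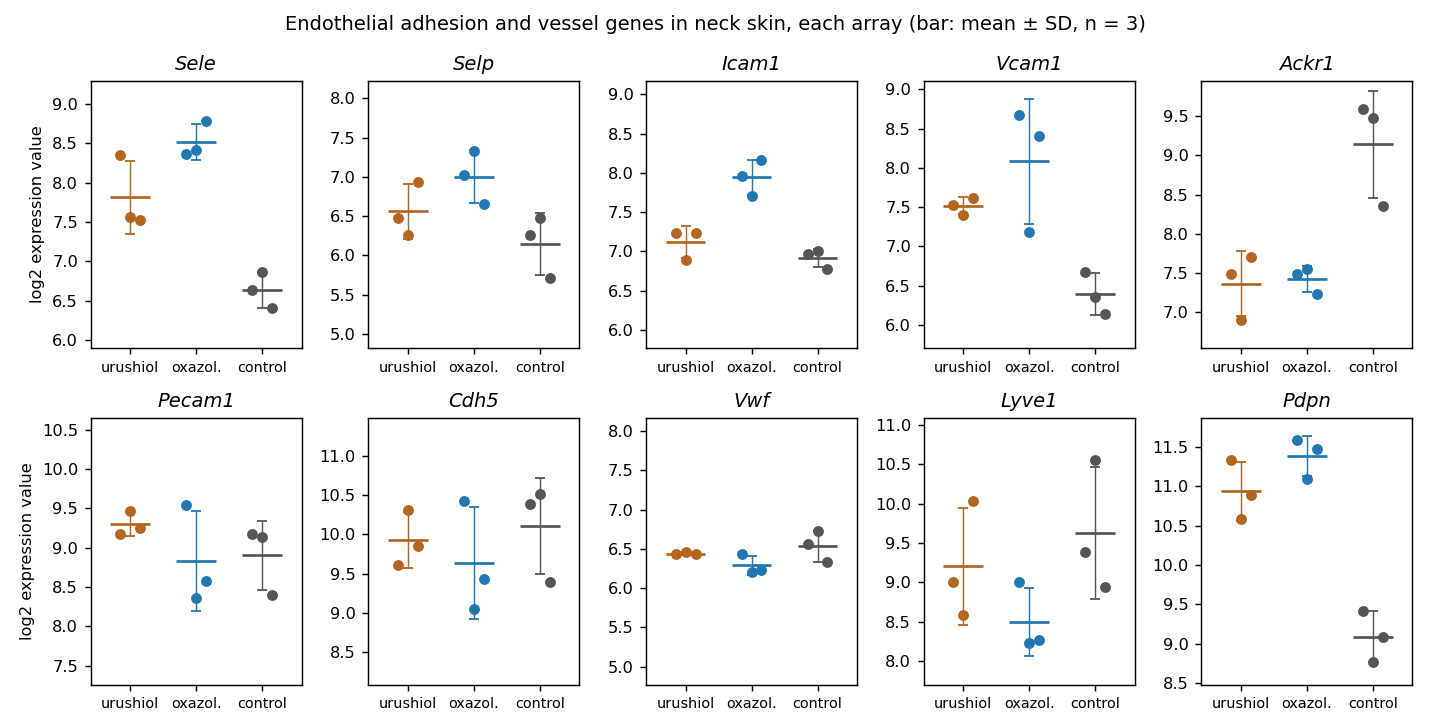
Log2 expression value of the 10 genes on each of the 9 arrays, with urushiol left, oxazolone in the middle and control right in each panel. Points are arrays, the horizontal bar is the group mean and the whisker its SD (n = 3), and every panel spans the same height. Sele and Pdpn lie above control in both challenged groups, Ackr1 lies below it, and Cdh5 and Pecam1 overlap.

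Sele, which encodes E-selectin and is made almost only by activated endothelium, rose in both dermatitis models. Its cluster (TC0100001495.mm.1) read 8.35, 7.56 and 7.53 on the urushiol arrays, 8.36, 8.42 and 8.78 on the oxazolone arrays, and 6.63, 6.87 and 6.41 on the control arrays. Every challenged array lay above every control array, and urushiol array 1 came close to the oxazolone arrays. The difference from control was 1.18 ± 0.25 log2 units with urushiol (SE, n = 3 arrays per group, adjusted p = 0.0216) and 1.88 ± 0.25 with oxazolone (adjusted p = 0.00457). The oxazolone call held in all 19 alternatives, while the urushiol call was lost without control array 1 (adjusted p = 0.0675) and with the 2 groups fitted alone (0.0711). Selp, the P-selectin that endothelium and platelets store in granules, read 6.48, 6.26 and 6.94 on the urushiol arrays, 7.03, 7.33 and 6.65 on the oxazolone arrays, and 6.26, 6.47 and 5.71 on the control arrays. All oxazolone arrays lay above all control arrays, and the urushiol arrays overlapped with both groups. Its difference was 0.41 ± 0.27 with urushiol (adjusted p = 0.348) and 0.86 ± 0.27 with oxazolone (adjusted p = 0.0718). Of 19 alternatives, the oxazolone difference of Selp passed only where dim genes were left out (0.0435). The platelet list (Gp5, Pf4 and 6 others) had a mean near the array median on all arrays, between 5.68 and 5.97. In it 0 genes passed with urushiol and 1 rose with oxazolone, Gp5 by 0.52 ± 0.11 (adjusted p = 0.0241), a call that did not hold when any one of control arrays 1 and 2 and oxazolone arrays 1 and 3 was dropped (0.0757 to 0.0826).

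Icam1, the ligand of the leukocyte integrin LFA-1, rose with oxazolone, and its urushiol arrays overlapped with control. Its cluster (TC0900000184.mm.1) read 7.24, 6.89 and 7.24 on the urushiol arrays, 7.96, 7.71 and 8.16 on the oxazolone arrays, and 6.97, 7.0 and 6.78 on the control arrays. The difference from control was 1.03 ± 0.14 with oxazolone (adjusted p = 0.00584), a call that held in all 19 alternatives. With urushiol it was 0.21 ± 0.14 (adjusted p = 0.376), with a 95% interval of -0.13 to 0.54. Vcam1, the ligand of the integrin VLA-4 on lymphocytes and eosinophils, read 7.53, 7.40 and 7.62 on the urushiol arrays, 8.67, 7.18 and 8.41 on the oxazolone arrays, and 6.68, 6.36 and 6.14 on the control arrays. All 6 challenged arrays exceeded the highest control array, the urushiol arrays lay close together, and oxazolone array 2 lay more than a log2 unit below the other oxazolone arrays. Vcam1 (TC0300002802.mm.1) rose by 1.69 ± 0.37 with oxazolone (adjusted p = 0.0246). The Vcam1 call failed with the 2 groups alone (0.0818) and without control array 1 (0.0579), control array 2 (0.0785), oxazolone array 1 (0.0676) or oxazolone array 3 (0.0794). With urushiol the Vcam1 difference was 1.12 ± 0.37 and did not pass (adjusted p = 0.0808). It passed without oxazolone array 2 (0.0102), with array weights (0.0459), with dim genes left out (0.0477) and with the 2 groups alone (0.0243).

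**Figure D2:**
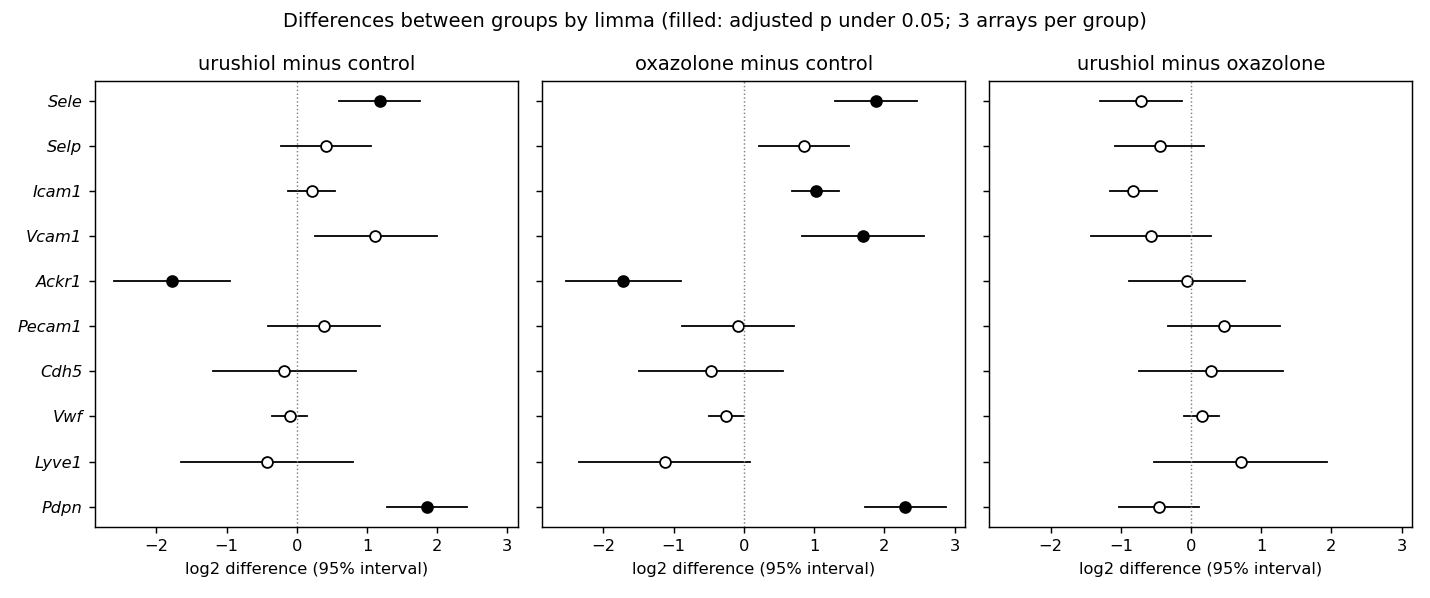
Log2 difference of each gene (points) with its 95% interval (lines) by limma, 3 arrays per group, for urushiol minus control, oxazolone minus control and urushiol minus oxazolone. Filled points passed an adjusted p of 0.05: 3 with urushiol, 5 with oxazolone and 0 between the allergens.

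Ackr1 was the member that fell, and it fell in both models. Its cluster (TC0100003586.mm.1) read 7.49, 6.90 and 7.70 on the urushiol arrays, 7.49, 7.55 and 7.23 on the oxazolone arrays, and 9.59, 9.47 and 8.36 on the control arrays. All challenged arrays lay below all controls, and control array 3 lay more than a log2 unit below the other controls. The difference was -1.78 ± 0.35 with urushiol (adjusted p = 0.0179) and -1.72 ± 0.35 with oxazolone (adjusted p = 0.0207). Without control array 3 it was -2.17 with urushiol and -2.11 with oxazolone, and both passed. The oxazolone call was lost with the 2 groups alone (0.0573) and without control array 1 (0.0689), control array 2 (0.0732), oxazolone array 1 (0.0609), 2 (0.0540) or 3 (0.0694). The urushiol call was lost with the 2 groups alone (0.0729) and without control array 1 (0.0599), control array 2 (0.0660), urushiol array 1 (0.0562) or urushiol array 2 (0.0517).

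Other content of the skin moved with Ackr1. The 8 skeletal muscle genes (Acta1, Ckm, Myh4, Ttn and 4 others), a list added after the data were seen, all fell in both comparisons, and their mean was 11.77, 11.51 and 12.58 on the urushiol arrays, 8.44, 7.15 and 9.45 on the oxazolone arrays, and 18.13, 18.01 and 16.13 on the control arrays. Muscle values were thus lowest on oxazolone arrays, where Ackr1 was close to its urushiol level, and control array 3 was the lowest control for both. The part of muscle loss in the Ackr1 result was not tested. The red cell list, which covers the other known source of Ackr1, had 3 of 8 genes measured, with means of 5.7 to 5.8 on urushiol arrays, 5.64 to 5.85 on oxazolone arrays and 5.99 to 6.24 on control arrays. Its 1 call was Ank1, an ankyrin of red cells and muscle, which fell by 1.02 ± 0.26 with oxazolone (adjusted p = 0.0387), a call that was kept without control array 3 and lost without any one of the other 8 arrays (0.0598 to 0.122), and its urushiol difference was -0.87 (adjusted p = 0.0607). With the mean of the blood endothelium list as a covariate, the Ackr1 difference was -1.79 with urushiol (adjusted p = 0.0241) and -1.62 with oxazolone (adjusted p = 0.0482). That mean was similar on urushiol and control arrays, so it could move the urushiol difference little.

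The blood vessel identity genes did not pass the test in any comparison. Pecam1 read 9.18, 9.47 and 9.25 on the urushiol arrays, 9.55, 8.36 and 8.58 on the oxazolone arrays, and 9.18, 9.14 and 8.40 on the control arrays. Its difference from control was 0.39 ± 0.34 with urushiol (95% interval -0.41 to 1.19) and -0.08 ± 0.34 with oxazolone (-0.88 to 0.72). Cdh5, which encodes VE-cadherin, the junction protein particular to endothelium, read 9.61, 10.31 and 9.85 on the urushiol arrays, 10.43, 9.05 and 9.43 on the oxazolone arrays, and 10.39, 10.52 and 9.40 on the control arrays. Its difference was -0.18 ± 0.43 with urushiol (-1.20 to 0.84) and -0.47 ± 0.43 with oxazolone (-1.49 to 0.56). Oxazolone array 1 was high and control array 3 was low for both genes, so the spread within these groups was wide. The intervals do not exclude a change of a log2 unit in Cdh5, or in Pecam1 with urushiol. Vwf was narrow by contrast, at 6.43, 6.46 and 6.43 on the urushiol arrays, 6.43, 6.21 and 6.23 on the oxazolone arrays, and 6.56, 6.73 and 6.33 on the control arrays. Its difference was -0.10 ± 0.11 with urushiol (adjusted p = 0.578) and -0.25 ± 0.11 with oxazolone (adjusted p = 0.144). The oxazolone difference of Vwf passed without control array 3 (-0.35, adjusted p = 0.0244) and with array weights (0.0481).

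**Figure D3:**
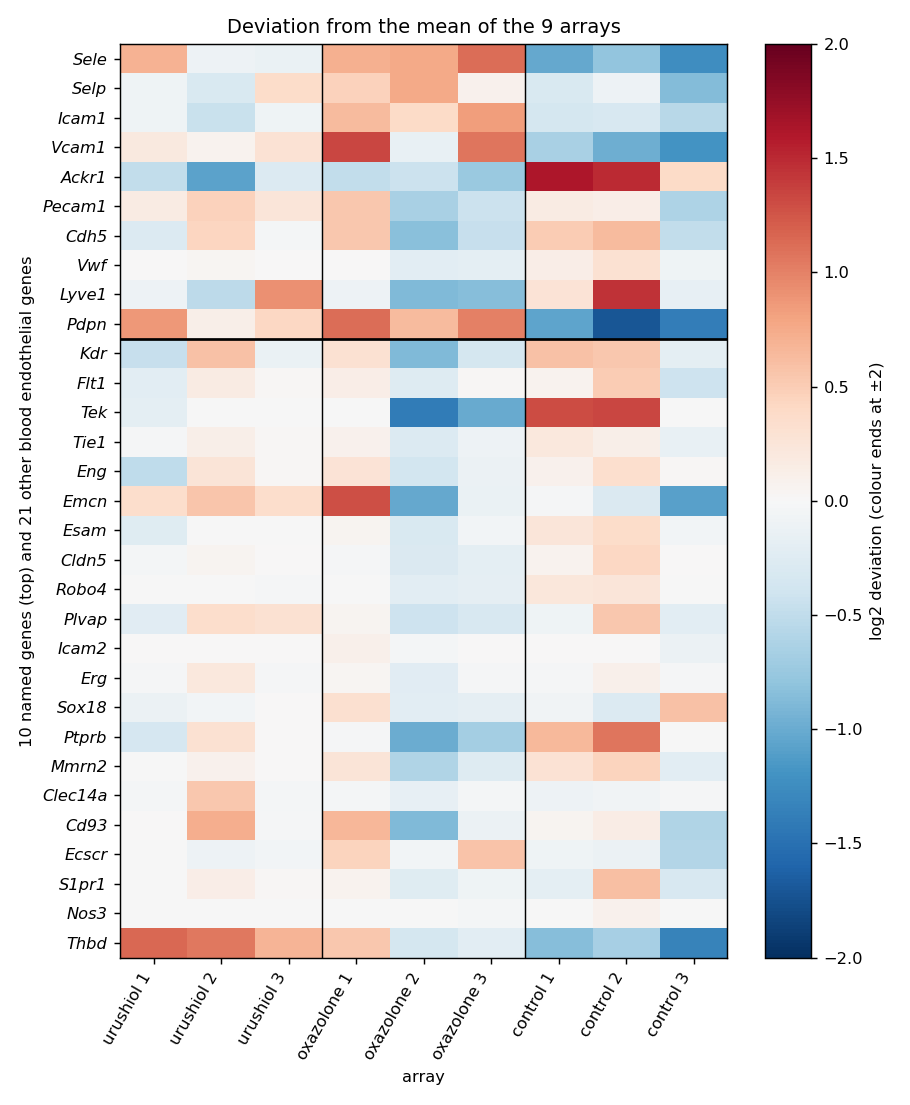
Deviation of each gene's log2 value from its mean over the 9 arrays, red above and blue below, with colour ends at ±2. Columns are arrays in the order urushiol, oxazolone, control, and the 10 genes stand above the line with 21 other blood endothelial genes below it. Oxazolone array 2 is blue over many endothelial genes. Among the 10 genes, Sele, Selp, Icam1, Vcam1 and Pdpn lie below their mean on all control arrays.

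Of 21 further measured genes of blood endothelium (Kdr, Flt1, Emcn, Plvap and others), 1 rose with urushiol and 0 fell, and 1 fell with oxazolone and 0 rose. Over all genes, 16.4% passed with urushiol and 16.6% with oxazolone. The median difference of the list was -0.03 with urushiol and -0.11 with oxazolone. The list mean was 7.14, 7.43 and 7.25 on the urushiol arrays, 7.40, 6.75 and 7.02 on the oxazolone arrays, and 7.30, 7.45 and 6.97 on the control arrays, so the groups overlapped. Thbd, the thrombomodulin that holds the vessel surface anticoagulant and is also made by keratinocytes, rose with urushiol by 1.91 ± 0.28 (adjusted p = 0.00666), reading 10.25, 10.15 and 9.77 against 8.25, 8.43 and 7.76 on the control arrays. On the oxazolone arrays Thbd read 9.64, 8.74 and 8.88, also above every control, with a difference of 0.94 ± 0.28 (adjusted p = 0.0613), and between urushiol and oxazolone the adjusted p was 0.533. Tek, the angiopoietin receptor, fell with oxazolone by 1.68 ± 0.46 (adjusted p = 0.0472), which missed the threshold with the replicate number as a block (0.0576) and when any one array other than control array 3 and oxazolone array 1 was dropped (0.0701 to 0.148). Its urushiol difference was -0.95 (adjusted p = 0.203). Without control array 3 the list's counts were 1 higher and 2 lower with urushiol, and 0 higher and 3 lower with oxazolone. With the list mean as a covariate, an alternative added after the data were seen, Sele differed by 1.18 with urushiol and 1.87 with oxazolone. Vcam1 gave 1.08 and 1.94, Pdpn 1.85 and 2.30, and Icam1 1.06 with oxazolone, and all of these passed. The list mean was similar on urushiol and control arrays, so the covariate could move the urushiol differences little, and the list holds Thbd and Tek. Whether vessel content had a part in these results was not tested.

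Of the genes used to mark lymphatic vessels, Pdpn rose in both models and Lyve1 did not pass the test in either. Pdpn (TC0400003917.mm.1) read 11.34, 10.59 and 10.89 on the urushiol arrays, 11.59, 11.10 and 11.48 on the oxazolone arrays, and 9.41, 8.76 and 9.09 on the control arrays. The lowest challenged array lay more than a log2 unit above the highest control. Pdpn rose by 1.85 ± 0.24 with urushiol (adjusted p = 0.00459) and by 2.30 ± 0.24 with oxazolone (adjusted p = 0.00234), and both calls held in all 19 alternatives. Lyve1 read 9.0, 8.58 and 10.03 on the urushiol arrays, 9.0, 8.23 and 8.26 on the oxazolone arrays, and 9.38, 10.56 and 8.94 on the control arrays. The groups overlapped, control array 2 and urushiol array 3 being high. Its difference was -0.42 ± 0.52 with urushiol (adjusted p = 0.640) and -1.13 ± 0.52 with oxazolone (adjusted p = 0.174), and neither passed.

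Other lymphatic genes gave no rise that passed with all 9 arrays. Of 9 measured members of the lymphatic list, 0 rose and 2 fell in each comparison, with medians of -0.14 with urushiol and -0.10 with oxazolone. Over all genes, 6.43% passed as lower with urushiol and 6.92% with oxazolone. By overlap alone, 5 of the 9 genes in each comparison were separated from control, beside 32.9% of all genes with urushiol and 32.8% with oxazolone. Nts, a neuropeptide, was above control on all challenged arrays, and the others, Prox1 and Mmrn1 among them, were below it. The Nts difference was 0.43 with urushiol (adjusted p = 0.194) and 0.68 with oxazolone (adjusted p = 0.0612), which did not pass. Nts was dim, its control values of 5.17 to 5.39 lying below the array medians. Nts passed with urushiol without oxazolone array 1 (0.0448), and with oxazolone without oxazolone array 2 (0.0406), with array weights (0.0447), with dim genes left out (0.0375) and with the endothelial covariate (0.0382). The 2 that passed as lower were Reln, a secreted glycoprotein, and Sema3d, a secreted guidance factor. Reln fell by 0.50 ± 0.09 with urushiol (adjusted p = 0.0128) and fell by 0.57 ± 0.09 with oxazolone (adjusted p = 0.00835). Sema3d fell by 5.45 ± 0.21 with urushiol (adjusted p = 0.000251) and fell by 5.06 ± 0.21 with oxazolone (adjusted p = 0.000154). It read 6.98, 6.87 and 7.53 on the urushiol arrays, 7.81, 7.43 and 7.33 on the oxazolone arrays, and 12.68, 12.37 and 12.69 on the control arrays. Prox1, the transcription factor that defines lymphatic endothelium, and the lymphatic growth factor receptor Flt4 were dim on all arrays, at 5.67 to 5.81 and 5.69 to 5.75 on urushiol arrays, 5.66 to 5.81 and 5.67 to 5.72 on oxazolone arrays, and 5.84 to 6.13 and 5.72 to 5.76 on control arrays. With these defining markers near the array median, the lymphatic content of the samples cannot be read from the list. The Reln call with urushiol was lost without control array 2 (0.0505).

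The other cell types that make Pdpn or Lyve1 were read from their own lists, beside the 16.4% of all genes that passed with urushiol and 16.6% with oxazolone. Among 9 keratinocyte genes, 5 rose and 1 fell in each comparison. Krt16, a keratin of stressed epidermis, rose by 8.82 ± 0.75 with urushiol and 8.31 ± 0.75 with oxazolone, the desmosomal cadherin Dsg3 by 3.35 ± 0.31 and 2.93 ± 0.31, and Krt15, a keratin of resting basal cells, fell by 4.70 ± 0.27 and fell by 4.17 ± 0.27. The keratinocyte mean ran from 16.41 to 16.53 on urushiol arrays, 15.97 to 16.49 on oxazolone arrays and 14.24 to 15.25 on control arrays. It was thus higher on every challenged array than on every control array, as were Pdpn, Sele and Vcam1. Among controls this mean was highest on array 3, where Sele (6.41) and Vcam1 (6.14) were lowest and Pdpn (9.09) lay between its values on the other controls. The oxazolone range of the keratinocyte mean did not lie above its urushiol range, and these genes had higher means with oxazolone than with urushiol. The part of keratinocyte content in the rise of Pdpn, Sele and Vcam1 was not tested. The fibroblast list fell in 3 of 7 genes with urushiol and 4 of 7 with oxazolone, with means of 13.67 to 14.56 on urushiol arrays, 13.45 to 14.31 on oxazolone arrays and 14.86 to 15.14 on control arrays, against the direction of Pdpn. With 1 array left out, the fibroblast list had 0 to 4 falls in each comparison, and 0 with oxazolone without control array 1 or oxazolone array 3. The macrophage list had 2 genes that rose with urushiol (Stab1 and Mrc1) and 1 that fell (Timd4, not with the replicate number as a block, adjusted p = 0.0595). With oxazolone 0 of its 10 genes passed. With 1 array left out the list had 0 to 3 rises and 0 to 1 falls with urushiol, and 0 to 1 rises and 0 to 2 falls with oxazolone. Its means were 9.82 to 10.26 on urushiol arrays, 9.18 to 10.28 on oxazolone arrays and 9.49 to 9.89 on control arrays. What share of the Pdpn and Lyve1 signal came from each cell type was not tested.

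Set directly against each other, urushiol and oxazolone skin gave 0 of the 10 genes that passed limma's test, in which 5 of 30142 genes passed (0.0166%). At an unadjusted p under 0.05 there were 1772 of 30142 genes, Sele and Icam1 among them. Where no gene differs, such a threshold passes a share of 0.05 of all genes on average, so this count does not set them apart. For 2 of the 10 genes, Icam1 and Sele, the 3 urushiol arrays lay below the 3 oxazolone arrays, as for 4.39% of all genes, and 9.74% did not overlap in either direction. The urushiol minus oxazolone difference of Icam1 was -0.82 ± 0.14 (95% interval -1.16 to -0.48, adjusted p = 0.211). For Sele it was -0.71 ± 0.25 (-1.29 to -0.13, adjusted p = 0.715), with urushiol array 1 only just below the lowest oxazolone array. Vcam1 gave -0.57 (-1.43 to 0.29), Selp -0.44 (-1.08 to 0.19) and Pdpn -0.45 (-1.02 to 0.12). Ackr1 gave -0.06 (-0.89 to 0.77), so a difference of most of a log2 unit either way lies within its interval. Lyve1 gave 0.71 (-0.52 to 1.93), Pecam1 0.47 (-0.33 to 1.27), Cdh5 0.29 (-0.74 to 1.31) and Vwf 0.15 (-0.10 to 0.40). The order of group means was thus oxazolone, urushiol, control for Sele, Icam1, Vcam1, Selp and Pdpn. By the test, urushiol and control were not separated for Icam1, Selp and Vcam1, and the allergens were not separated for any of the 5. By overlap of arrays, urushiol and control were not separated for Icam1 and Selp, and the allergens were not for Selp, Vcam1 and Pdpn.

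Interferon gamma, an inducer of Icam1, was the cytokine list member with the greatest difference between the allergens. Ifng read 4.84, 4.38 and 4.62 on the urushiol arrays, 6.93, 6.98 and 8.07 on the oxazolone arrays, and 4.46, 4.80 and 4.46 on the control arrays. It rose with oxazolone by 2.75 ± 0.31 (adjusted p = 0.0028), and its difference was 0.04 with urushiol (adjusted p = 0.968). Between urushiol and oxazolone the Ifng difference was -2.71 (95% interval -3.44 to -1.99, adjusted p = 0.0767). That difference passed without oxazolone array 2 (-2.89, adjusted p = 0.0478) or 3 (-2.34, 0.0120), with array weights (0.0246) and with dim genes left out (0.0354). Icam1 and Ifng thus both had their oxazolone arrays above all others, over arrays that share 3 groups, and no relation between them was tested. Of 17 measured cytokine and NF-kB genes, 3 rose with urushiol and 8 with oxazolone, and 0 fell, beside 9.96% and 9.63% of all genes called higher. With 1 array left out, 2 to 5 rose with urushiol and 4 to 7 with oxazolone, so these ranges overlap. The genes that rose with urushiol were Il1b by 7.77 ± 0.39, Il1a by 4.24 ± 0.54 and Il6 by 2.93 ± 0.55, and with oxazolone these rose by 8.11 ± 0.39, 3.73 ± 0.54 and 4.40 ± 0.55. Dropping control array 1, control array 2 or urushiol array 1 ended the Il6 call with urushiol (0.0541 to 0.0569). Tnf, the classical inducer of Sele, gave 1.29 with urushiol (adjusted p = 0.0808) and rose by 1.66 with oxazolone (adjusted p = 0.0387). The Tnf call with oxazolone ended when any one array other than control array 3, oxazolone array 2 and urushiol array 1 was dropped (0.0591 to 0.116), and Tnf with urushiol passed without oxazolone array 1 (0.0344).

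**Figure D4:**
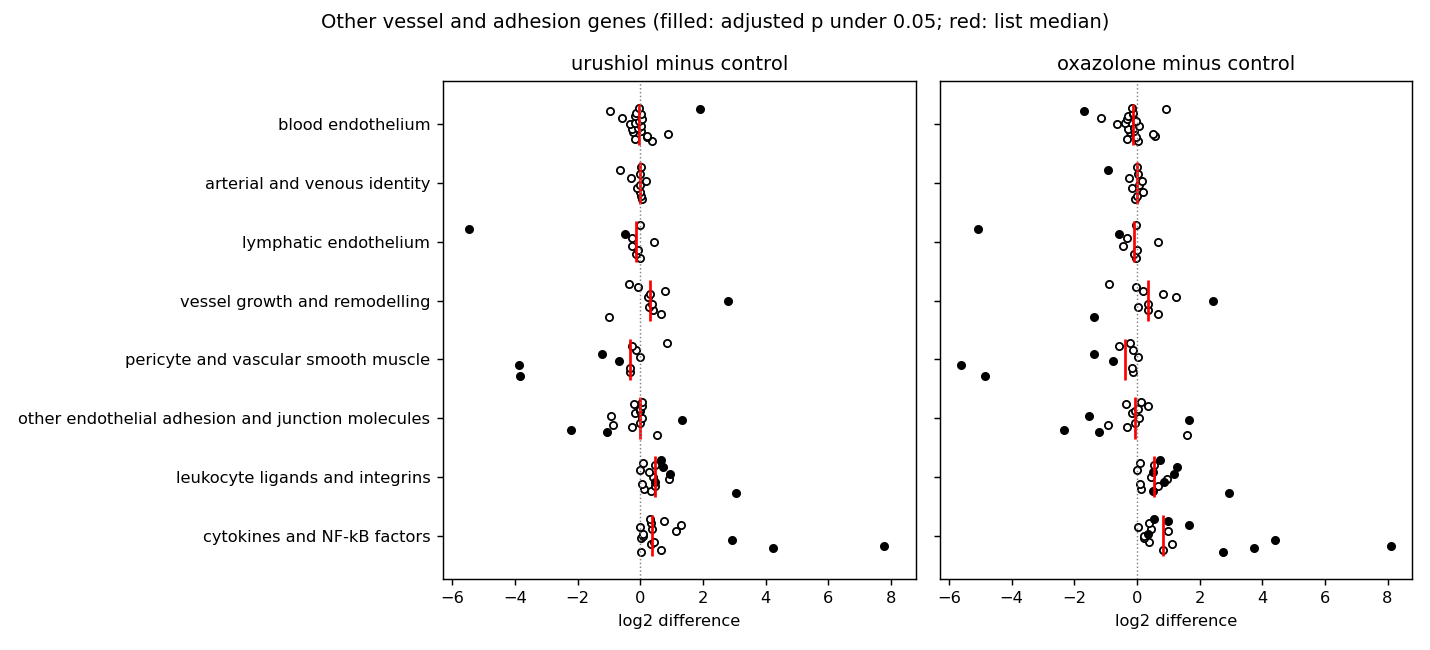
Log2 difference from control of each gene (points) in 8 lists of vessel and adhesion genes, urushiol left and oxazolone right. Filled points passed an adjusted p of 0.05 and the red bar is the list median. Points of the leukocyte ligand and cytokine lists lie at or right of 0, and those of the blood endothelium list crowd around it.

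Part of the leukocyte partners of these adhesion molecules rose in challenged skin, where 9.96% of all genes were called higher with urushiol and 9.63% with oxazolone. Of 15 measured selectin ligands and integrins, 5 rose with urushiol and 7 with oxazolone, and 0 fell, with medians of 0.46 and 0.54. Cd44, a hyaluronan receptor that also binds E-selectin, rose by 3.06 ± 0.42 with urushiol and 2.95 ± 0.42 with oxazolone, and it is abundant in epidermis too. Jaml, a junction adhesion molecule of neutrophils and T cells, rose by 0.73 ± 0.11 with urushiol and 1.27 ± 0.11 with oxazolone. Of 8 general leukocyte genes, 4 rose with urushiol and 6 with oxazolone, and Cd53, a leukocyte tetraspanin, rose by 2.54 ± 0.26 and 3.16 ± 0.26. The leukocyte mean was 8.64 to 9.03 on urushiol arrays, 8.86 to 9.44 on oxazolone arrays and 7.97 to 8.17 on control arrays, so leukocyte RNA moved with Sele, Vcam1 and Pdpn, and its part in those results was not tested. Leaving out 1 array at a time gave 3 to 7 calls for the ligand list with urushiol and 5 to 8 with oxazolone, and 1 to 4 and 3 to 5 for the leukocyte list.

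A part of the other vessel genes passed, beside 16.4% of all genes with urushiol and 16.6% with oxazolone. Of 15 further endothelial adhesion and junction genes, 1 rose with each allergen, 2 fell with urushiol and 3 fell with oxazolone, and Cd34, a sialomucin of endothelium and of fibroblasts and hair follicle cells, fell by 2.22 ± 0.31 with urushiol (adjusted p = 0.00567) and fell by 2.34 ± 0.31 with oxazolone (adjusted p = 0.00483). In the pericyte and smooth muscle list, 4 of 10 genes fell in each comparison, with medians of -0.33 with urushiol and -0.39 with oxazolone, and 0 to 4 fell with urushiol and 2 to 4 with oxazolone with 1 array left out. Des, the intermediate filament of all muscle, fell by 3.87 ± 0.77 with urushiol and fell by 5.61 ± 0.77 with oxazolone, and the channel subunit Abcc9 fell by 3.83 ± 0.91 and fell by 4.86 ± 0.91. Both are also made in skeletal muscle, whose list fell as given above, and the Abcc9 calls were lost without control array 1 (adjusted p = 0.1 with urushiol and 0.0578 with oxazolone), as was that of Des with urushiol (0.0630). Among 10 arterial and venous genes, 0 passed with urushiol and 1 fell with oxazolone, the venous transcription factor Nr2f2, which fell by 0.91 ± 0.21 (adjusted p = 0.0286). Nr2f2 missed the threshold when any one array other than control array 3, oxazolone array 1 and urushiol array 1 was dropped (0.0514 to 0.0925). Its urushiol difference was -0.65 (adjusted p = 0.0759). In the vessel growth list of 11, 1 gene rose with each allergen and 1 fell with oxazolone. Hif1a, the oxygen-sensing transcription factor, rose by 2.79 ± 0.19 with urushiol and 2.42 ± 0.19 with oxazolone. Angpt1, the ligand of Tek, fell by 1.36 ± 0.28 with oxazolone (adjusted p = 0.0217), which missed the threshold when control array 1 or 2, or any oxazolone array, was dropped (0.0570 to 0.0738). Its urushiol difference was -1.01 ± 0.28 (adjusted p = 0.0522), with every urushiol array below every control.

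The genes whose pattern over the 9 arrays was most like that of 4 members are given as a description, since the arrays share 3 groups and any gene that differs from control in the same way will rank high. For Sele these were the scavenger receptor Msr1 (Pearson r = 0.974), Cdc42ep3 (0.973) and the chemokine Ccl12 (0.969). For Ackr1 they were the growth hormone receptor Ghr (0.993), the mitochondrial enzyme Oat (0.990) and Hibch, an enzyme of valine breakdown (0.987). For Lyve1 they were the sodium channel Scn7a (0.913), the lectin Cd209b (0.911) and ceruloplasmin, Cp (0.910). For Pecam1 they were Olfr558 (0.979), Mxra8 (0.949) and Ttc12 (0.921), and Olfr558 lay near the array median, between 5.41 and 5.93. Pecam1 and Cdh5 correlated at 0.840 with each other, and at -0.023 and -0.372 with Sele.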

How the data were processed

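Each of the 9 arrays gave 1 value per transcript cluster, and the deposited values are log2 expression values. The submitters' processing notes name Expression Console 1.4, Transcriptome Analysis Console and RMA without saying what each did. RMA as defined corrects background, normalises arrays by quantiles and summarises probes. Genome build: not given in the sources used here. Of 72688 features, 6732 array controls were left out. The platform annotation gave 1 symbol to 30604 clusters, several to 2146 and none to 33206, and 827 symbols were updated by gene ID to RefSeq (GRCm38.p6). For each of the 30142 genes the cluster brightest on average over the arrays was kept. Arrays carry no depth, and their number limits the precision.

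Groups came from sample titles. All 9 arrays entered 1 model (lmFit, then eBayes, limma 3.58.1, R 4.3.3), which was first tested on simulated data. P-values are two-sided, adjusted by Benjamini-Hochberg over the 30142 genes, and called at 0.05. In the text, ± is a standard error. The members and lists were chosen with earlier results of these data known. The skeletal muscle list, the promoter motifs and the covariate were chosen after the data were seen. From each other list at most 3 genes per comparison were named, the called ones with the greatest difference, and 2 by size where none was called. Ifng, Tnf, Nts, Prox1, Flt4 and Mmrn1, and the examples given of what a list holds, were chosen after their values were seen. For Sele, Ackr1, Pecam1 and Lyve1 the 3 most correlated genes were named. Mcam and Itgb2 are each in 2 lists. Promoter windows come from a table made from RefSeq, in which 5 of 10 members were matched. Those of Vcam1, Pecam1, Cdh5, Vwf and Lyve1 were not used here.

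Whether replicate numbers pair arrays was checked from deviations from group means. The 3 same-numbered urushiol and oxazolone pairs correlated at 0.124 to 0.201, above 0.1, and differently numbered ones at -0.18 to 0.021. Deviations from a group mean cancel within the group, so the ranges of same-numbered and differently numbered pairs are not independent. The same-numbered arrays were taken as paired only in the replicate block alternatives, and no label pairs them. The main model had no term for replicate number, so its urushiol minus oxazolone standard errors and p-values did not use this pairing. Same-numbered pairs with controls gave -0.232 to 0.337, 4 of 6 below 0.1. All differently numbered pairs, those with controls included, gave -0.290 to 0.285. The alternatives were 2 groups alone, a replicate block, dim genes left out, the mean of a gene's clusters, quantile normalization, median centring, trended robust variances, array weights, all clusters tested, the covariate, and each array left out in turn.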

Additional observations from a re-analysis of the deposited data

How the results depend on the processing

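Of the 10 genes, 3 passed with urushiol, and 1 to 4 with 1 array left out. With oxazolone 5 passed, 3 with the 2 groups fitted alone and 3 to 6 with 1 array left out. Between the allergens 0 passed in all alternatives run. With the replicate number as a block the counts were 3, 5 and 0, and 0 with the 6 challenged arrays alone, and the block changed no member's call. Of 580 values of the 10 genes under alternatives, 542 kept direction and side of the threshold, 18 lost the call, 8 gained it and 12 changed sign. All of the last were among differences that had not passed, as were most of the 580. Each member has 1 cluster, so the mean of clusters repeats its difference by construction, also within each count of 19. Of 19 alternatives, calls were lost in 6 for Ackr1 with oxazolone, 5 with urushiol, 5 for Vcam1 with oxazolone and 2 for Sele with urushiol. The urushiol minus oxazolone difference of Ackr1 was 0.03 with array weights and -0.23 to 0.17 with 1 array left out, and that of Cdh5 was -0.19 with the endothelial covariate and -0.01 to 0.68. Pecam1 with oxazolone was 0.23 with the covariate and -0.44 to 0.16. With urushiol, Cdh5 ran from -0.53 to 0.03 and Lyve1 from -0.84 to 0.04. Ifng with urushiol was -0.01 with quantile normalization or median centring, 0.0 with array weights and -0.07 to 0.16 with 1 array left out, and Tnf between the allergens ran from -0.72 to 0.08.

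Over all genes, 4942 passed with urushiol, 2324 with 2 groups alone, 8135 with array weights and 2189 to 7655 with 1 array left out. With oxazolone 4989 passed, and 2198, 7688 and 2107 to 8019 under the same settings. Between the allergens 5 passed. There were 2 with 2 groups alone, 35 with dim genes left out, 54 with array weights and 0 to 94 with 1 array left out. With the replicate block on 9 arrays or on 6 challenged arrays, with median centring, with trended robust variances and with the covariate there were 0. The replicate block gave 5119 genes with urushiol and 5083 with oxazolone. The cause of these shifts was not tested. The deposited table holds no detection calls, so signal was judged against array medians alone, and Selp and Vwf lay above them on all 9 arrays.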

Other observations

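Identical values recur in the deposited table. Of 30142 genes, 2591 had the same value, to the 2 decimals given, on all 3 urushiol arrays, 1660 on all 3 oxazolone arrays and 1551 on all 3 control arrays. None of the 10 endothelial genes was among them. Of 159 genes of the other lists, 13 were among them on the urushiol arrays, Jaml and Itgal included, 0 on the oxazolone arrays and 5 on the control arrays. Their spread in that group is listed as 0. Tek read 8.19 on control array 3, oxazolone array 1 and urushiol arrays 2 and 3.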
